A study of Mus musculus with 4 samples.

Results

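Transcripts of 39 genes of cholesterol and fatty acid synthesis were followed in C2C12 cells, a mouse myoblast line, after 6 h with recombinant GDF10 or with vehicle. The genes were a chosen list of enzymes and regulators, matched by symbol. All 39 were found among the 51826 gene identifiers of the count table, and all 39 passed the filter on low counts that left 15467 genes for testing. Both groups held unmodified C2C12 cells in growth medium, and each comprised 2 libraries of total RNA that the labels call biological replicates. The GDF10 group received the recombinant form of this growth and differentiation factor, a member of the TGF-beta family of secreted signals; its dose is not stated in the labels. The control group received vehicle for the same time. The labels call the cells muscle stem cells, although a protocol text names longissimus dorsi muscle as the tissue of extraction. C2C12 is a single established line, so the replicates share its genotype.

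Cholesterol is built from acetyl-CoA through mevalonate, isoprenoid units and squalene, and then from lanosterol by a series of demethylation, reduction and isomerisation steps. Fatty acid synthesis draws on the same acetyl-CoA, which is carboxylated, polymerised into palmitate, and then elongated and desaturated. Both branches are switched on by the SREBP transcription factors, which the sterol sensor SCAP carries from the endoplasmic reticulum to the Golgi for cleavage when membrane sterol is low, and which INSIG proteins hold back when it is high. Dividing myoblasts need both products for membranes. SREBPs bind sterol regulatory elements near the start sites of their target genes, commonly beside CCAAT boxes bound by NF-Y and GC boxes bound by Sp1.

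Promoter windows of 5 members are shown because they carry the sequence feature that most members shared and that played no part in their choice. Each run is the 180 bases before the RefSeq start site on build GRCm38.p6, in the direction of transcription, and capitals mark the CCAAT box on either strand (CCAAT or ATTGG) and the sterol regulatory element searched as TCACNCCAC. None of these runs overlapped an annotated exon of GENCODE M21. The Hmgcs1 run is chr13:119690171-119690350 on the plus strand, the Mvk run chr5:114444089-114444268 on the plus strand, the Mvd run chr8:122443423-122443602 on the minus strand, the Ebp run chrX:8193513-8193692 on the minus strand and the Fasn run chr11:120824548-120824727 on the minus strand.
Hmgcs1: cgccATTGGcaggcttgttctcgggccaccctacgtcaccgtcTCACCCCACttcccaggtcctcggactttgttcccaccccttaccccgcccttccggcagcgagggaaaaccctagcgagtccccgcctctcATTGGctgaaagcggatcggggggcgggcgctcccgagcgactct
Mvk: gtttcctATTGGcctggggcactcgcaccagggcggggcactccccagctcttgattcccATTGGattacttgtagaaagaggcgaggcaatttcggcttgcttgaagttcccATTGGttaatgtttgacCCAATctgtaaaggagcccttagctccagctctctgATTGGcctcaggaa
Mvd: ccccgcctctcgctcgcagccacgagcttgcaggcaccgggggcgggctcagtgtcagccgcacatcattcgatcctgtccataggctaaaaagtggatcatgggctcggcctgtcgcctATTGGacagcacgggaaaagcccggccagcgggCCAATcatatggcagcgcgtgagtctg
Ebp: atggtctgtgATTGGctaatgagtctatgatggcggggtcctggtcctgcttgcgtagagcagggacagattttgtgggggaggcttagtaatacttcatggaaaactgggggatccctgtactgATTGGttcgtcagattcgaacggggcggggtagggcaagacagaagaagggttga
Fasn: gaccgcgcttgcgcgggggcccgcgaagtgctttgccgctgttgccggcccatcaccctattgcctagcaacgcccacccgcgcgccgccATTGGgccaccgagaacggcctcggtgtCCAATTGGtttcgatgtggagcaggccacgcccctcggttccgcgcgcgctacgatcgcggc

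Hmgcs1, the HMG-CoA synthase gene, held the sequence TCACCCCAC starting 137 bases before its start site, with CCAAT boxes 176 and 45 bases before it, counted to the first base of each match. Mvk, the mevalonate kinase gene, held 5 CCAAT boxes in its run. Mvd, the mevalonate decarboxylase gene, and Ebp, a sterol isomerase gene, held 2 each. Fasn, the fatty acid synthase gene, held 3, of which the last pair overlap. RefSeq windows of 250 bases before the start and 50 from it were at hand for 32 members; those of Fdps, Fdft1, Sqle, Stard4, Scd1, Scd2 and Fads1 were not. A CCAAT box was found in 27 of the 32, or 84.4%, against 41.1% of 27025 genes with such a window and 43.2% of the 10492 of them that were tested here. A GC box (GGGCGG on either strand) was found in 26 of 32, or 81.2%, against 67.1% of the tested genes. The palindromic E-box CACGTG was found in 6, or 18.8%, against 11.4%. TCACNCCAC was found in 1 of 32, Hmgcs1, or 3.12%, against 1.41%. A gene with several windows was counted when any of them held a match. The shares therefore depend on the number of windows per gene, which was not compared between members and all genes. A match is a string of letters, not a shown binding site. Sterol regulatory elements spelled otherwise, or lying outside the windows, were not counted.

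Library totals ran from 29641165 to 35597310 counts, and 21130 to 21748 genes had a count. The table held the defining transcripts of myoblasts: of 8 such genes 7 were tested, among them Myod1 and Des, while Pax7 was at 0 in all libraries. Summed levels of these 8 were 2281 to 2299 CPM (counts scaled to a common library size) with vehicle and 2340 to 2350 with GDF10. Cells with high lipid synthesis were looked for as well. Of 5 hepatocyte genes 4 were at 0 throughout and the sum was at most 0.0280 CPM. Of 7 adipocyte genes, Adipoq, Cidec and Lep were at 0 throughout; the list summed to 89.2 to 91.1 CPM with vehicle and 97.5 to 110 with GDF10, mostly Cebpa (log2 fold change 0.24, unadjusted p = 0.0466, adjusted p = 0.825 in edgeR's quasi-likelihood test, 4 libraries). The part of that list in the values below was not tested. Mature fibre genes summed to 73.4 to 84.8 CPM, leukocyte and blood genes to 7.20 to 8.81 CPM, and fibroblast genes, which myoblasts also express, to 3846 to 4453 CPM.

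The myoblasts expressed nearly the whole pathway. As CPM per kilobase of exon (RPKM), 12 of 39 members stood above 50, and the 39 together took 0.765% and 0.766% of counts with vehicle, against 0.802% and 0.768% with GDF10. Scd2, a stearoyl-CoA desaturase gene, had the highest level, 307 ± 14.6 RPKM (SD over 4 libraries), above 99.05% of tested genes. It was followed by its paralog Scd1 at 99.6 ± 1.31, the SREBP transcription factor gene Srebf2 at 86.9 ± 3.02, and the ATP-citrate lyase gene Acly at 76.2 ± 2.99. Sqle, Cyp51 and Fdps stood next at 73.0 ± 3.28, 71.0 ± 6.07 and 70.8 ± 8.09, values that differed by less than their spread. At the other end were Acaca at 5.32 ± 0.353, Tm7sf2 at 2.99 ± 0.508, Acss2, the cytosolic acetyl-CoA synthetase gene, at 0.857 ± 0.0914, and Acacb at 0.0302 ± 0.0138. Exon length was taken as the union of all annotated exons, which is much longer than the main transcript for some members. With the longest transcript as length Scd2 was still highest, at 308 RPKM, but the order below it turned, with Srebf2 at 123, Fdps at 100.9, Scd1 at 100.8 and Acly at 90.9.

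**Figure D1:**
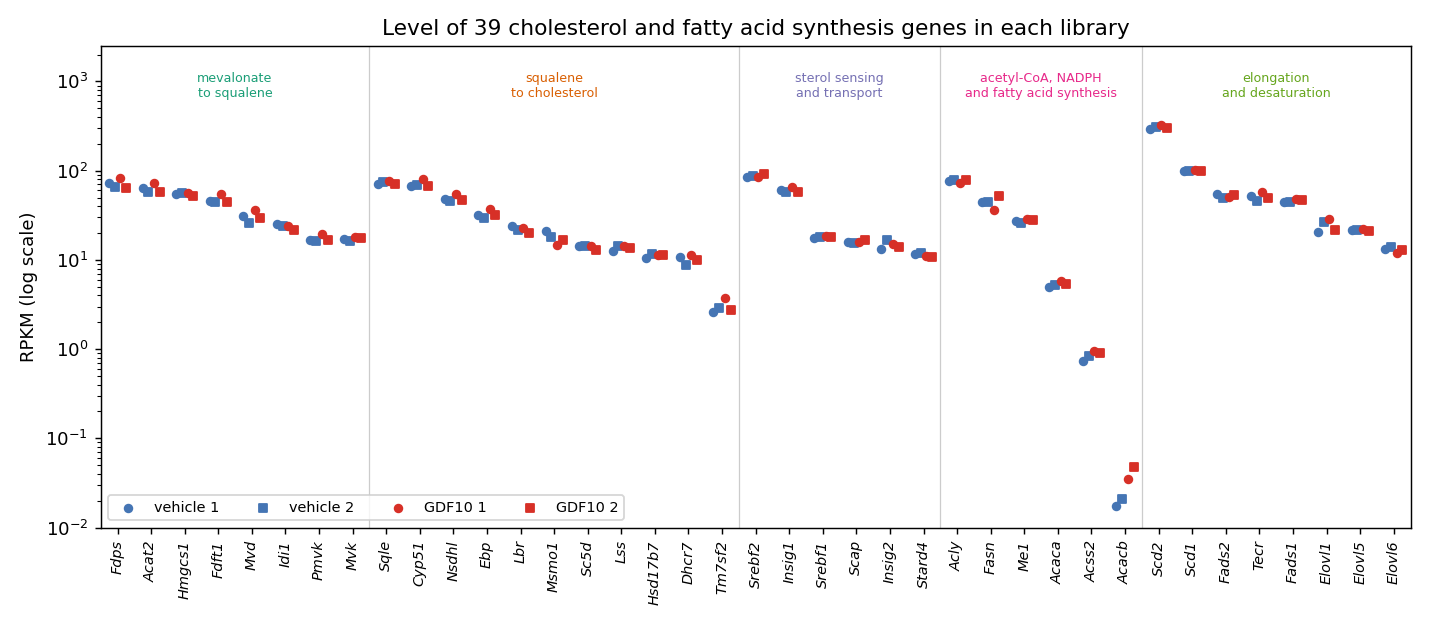
Level of each member in the 4 libraries, in RPKM (log axis), ordered by role and then by level; blue marks vehicle and red marks GDF10, with circles for replicate 1 and squares for replicate 2. Scd2 stands highest at 307 RPKM and Acacb lowest at 0.0302, and the symbols of the 4 libraries lie close together for most genes.

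Among genes that encode like activities, 1 member of a pair had most of the transcript in the Acac, Srebf, Scd, Insig and sterol C14 reductase pairs. Acaca, the acetyl-CoA carboxylase that supplies fatty acid synthesis, made up 99.7% and 99.6% of the Acaca and Acacb sum per length with vehicle and 99.4% and 99.1% with GDF10. Acacb, the isozyme tied to the control of fatty acid oxidation at mitochondria, had 6, 6, 10 and 16 counts in vehicle 1, vehicle 2, GDF10 1 and GDF10 2. Srebf2, of sterol control, made up 82.9% ± 0.501 (SD, 4 libraries) of the sum with Srebf1, of fatty acid control. Scd2 made up 75.5% ± 0.627 of the Scd pair, and Insig1 80.4% ± 1.94 of the Insig pair. Lbr, a nuclear membrane protein that also reduces the sterol C14 double bond, made up 88.1% ± 1.78 of the sum with Tm7sf2, the reductase of the endoplasmic reticulum. Fads1 and Fads2, the desaturases of polyunsaturated fatty acids, were near parity, with Fads2 at 53.3% ± 1.55. That order turned with the length of the longest transcript, which gave Fads2 46.2%. Scd1 and Scd2 are similar in sequence and the labels do not give the counting rule, so reads may have been divided between them.

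**Figure D2:**
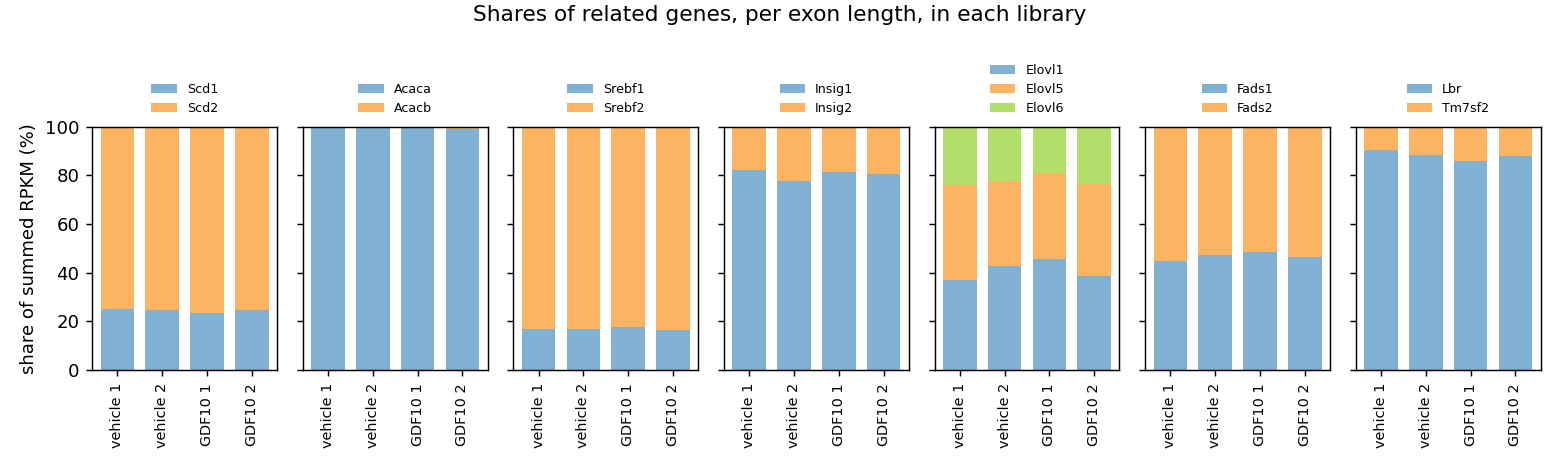
Share of each gene in the summed RPKM of its pair or family, in percent, with 1 bar per library. Acaca takes 99.1% to 99.7% of its pair, and Elovl1, from 36.9% to 45.6% of the 3 elongases, varies within both groups.

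The comparison of GDF10 with vehicle asked which transcripts differed at 6 h. No member passed the test. In edgeR's quasi-likelihood test 0 of 39 members reached an adjusted p of 0.05, beside 25 of 15467 genes or 0.162% of all tested (0.084% higher and 0.0776% lower with GDF10), and the lowest adjusted p among members was 0.825. DESeq2 also called 0 members, beside 0.42% of all genes. An unadjusted p under 0.05 was reached by 1 member, Msmo1, or 2.56%, against 5.94% of all genes in edgeR; in DESeq2 it was also 1, against 4.31%. The 2 groups did not overlap in 11 members, 8 higher and 3 lower with GDF10, or 28.2%, against 38.2% of all genes (18.8% higher and 19.4% lower). Log2 fold changes were positive in 28 members and negative in 11, with a median of 0.06, where 50.8% of all genes were positive and their median was 0.0029. In bulk RNA a difference in level cannot be told apart from a difference in the mix of cells.

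The data bounded the size of a change closely. The 95% interval of the fold change lay within 1.5-fold in either direction for 35 of 39 members, or 89.7%, against 60.9% of all genes. The 4 exceptions were Acacb, Tm7sf2, Acss2 and Elovl1. The median standard error was 0.09 on the log2 scale for members and 0.13 for all genes, and the members were also higher expressed, with a median log2 CPM of 6.72 against 4.46. Replicates differed about as much as the groups did: the median absolute log2 ratio of members was 0.09 between the vehicle libraries and 0.14 between the GDF10 libraries, and the median absolute log2 fold change between groups was 0.09.

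**Figure D3:**
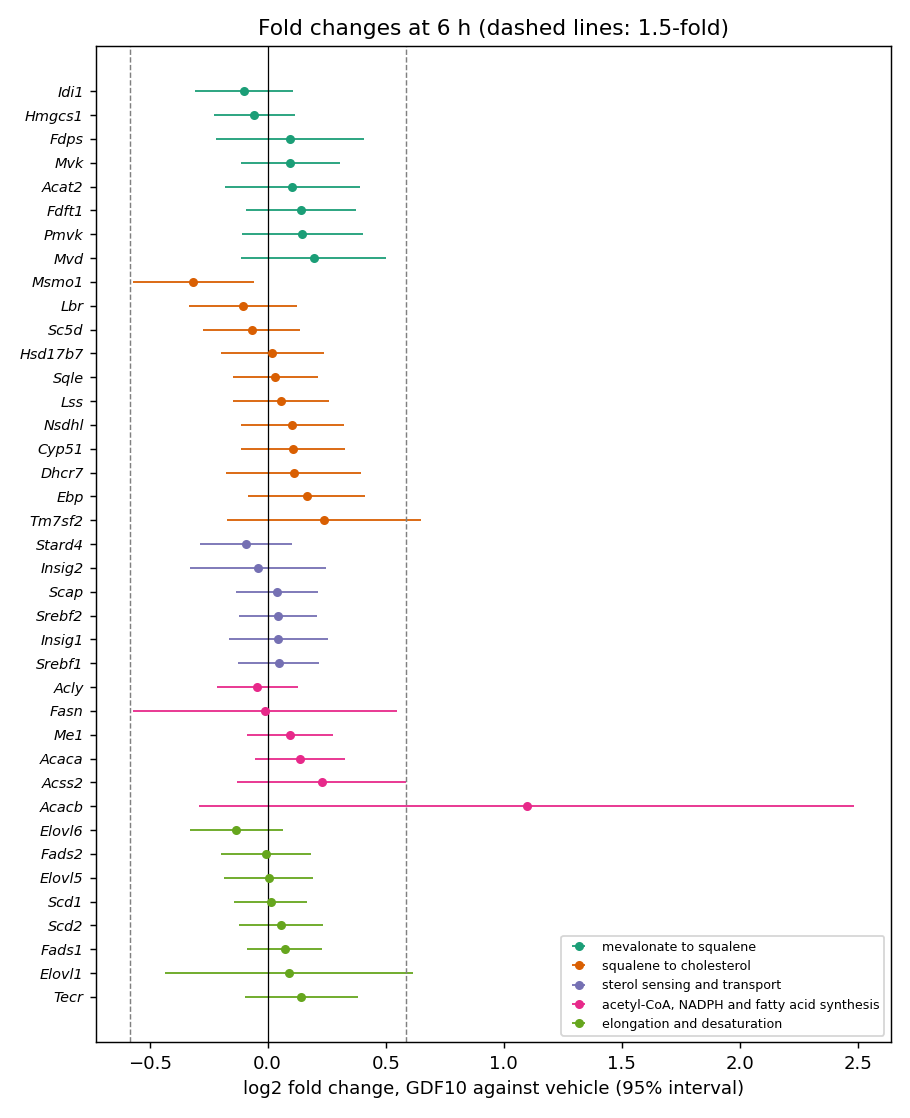
Log2 fold change of GDF10 against vehicle for each of the 39 members with its 95% interval from edgeR (x axis), coloured by role. Of the intervals 35 lie between the dashed lines at 1.5-fold, and only that of Msmo1 leaves out 0.

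The 8 genes from acetyl-CoA to squalene gave sums of 1133 and 1069 CPM with vehicle and 1248 and 1053 with GDF10, so the GDF10 libraries lay on both sides of the vehicle libraries. Of these 8, 6 had positive and 2 negative fold changes, between −0.10 and 0.20 on the log2 scale. Hmgcs1, whose promoter run is printed above, stood at 254 and 257 CPM with vehicle and 255 and 236 with GDF10, a log2 fold change of −0.06 (95% interval −0.23 to 0.11). Fdps, the farnesyl diphosphate synthase gene, stood at 303 and 274 CPM with vehicle and 344 and 271 with GDF10 (0.09, −0.22 to 0.41). In both Hmgcs1 and Fdps the groups overlapped. Fdps shares 1124 exon bases, 26.7% of its exons, with Gm43738, which had 48 to 77 counts. Both lie on the same strand, so strand cannot separate their reads.

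Acat2, which joins acetyl-CoA units, stood at 161 and 148 CPM with vehicle and at 185 and 148 with GDF10, for a log2 fold change of 0.11 (−0.18 to 0.39). Mvd had the largest positive fold change of this segment, with 57.7 and 48.5 CPM under vehicle and 66.7 and 54.99 under GDF10 (0.20, −0.11 to 0.50; unadjusted p = 0.177 and adjusted p = 0.845 in edgeR). Fdft1, the squalene synthase gene, stood at 193 and 187.5 CPM with vehicle and 230 and 190 with GDF10 (0.14, −0.09 to 0.38). In Acat2, Mvd and Fdft1 replicate 1 of GDF10 was the highest of the 4 libraries. Fdft1 shares 774 exon bases with Ctsb on the other strand, which had 50028 to 61234 counts, and the labels do not say whether counting used strand. The kinase genes Mvk and Pmvk had both GDF10 libraries above both vehicle libraries, at 48.6 and 47.0 against 46.2 and 43.2 CPM for Mvk and at 33.6 and 28.9 against 28.2 and 28.1 CPM for Pmvk. The isomerase gene Idi1 ranged from 76.6 to 89.2 CPM over the 4 libraries.

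The 11 genes from squalene to cholesterol gave sums of 1479 and 1474 CPM with vehicle and 1585 and 1428 with GDF10. Sqle, which encodes the rate-controlling squalene epoxidase, stood at 392 and 409 CPM with vehicle and 429 and 390 with GDF10, for a log2 fold change of 0.03 (−0.15 to 0.21). Cyp51, the lanosterol demethylase gene, stood at 299 and 304 CPM with vehicle and 353 and 296 with GDF10 (0.11, −0.11 to 0.33). Again the groups overlapped, with replicate 1 of GDF10 highest.

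Msmo1, a methylsterol oxidase gene that acts after Cyp51 (ENSMUSG00000031604; mm10 chromosome 8, 64718139 to 64733792), was the member of lowest p. It stood at 130 and 111 CPM with vehicle and at 89.8 and 104 with GDF10, so that both GDF10 libraries lay below both vehicle libraries. The log2 fold change was −0.31 with a standard error of 0.11 (95% interval −0.57 to −0.06; unadjusted p = 0.0232, adjusted p = 0.825 in edgeR). The unadjusted p was 0.207 without vehicle replicate 1 and 0.0984 without GDF10 replicate 1, where the log2 fold changes were −0.20 and −0.22. Without vehicle replicate 2 it was 0.0155, and without GDF10 replicate 2 it was 0.00816, with log2 fold changes of −0.42 in both; over these 4 fits the adjusted p ran from 0.165 to 0.991. Nsdhl, whose product acts with MSMO1 in the same demethylation, did not share this order, at 137 and 132 CPM with vehicle and 156 and 133 with GDF10.

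Ebp stood at 73.8 and 67.5 CPM with vehicle and 85.8 and 72.8 with GDF10, for a log2 fold change of 0.17 (−0.08 to 0.41). Tm7sf2 stood at 11.4 and 12.7 CPM with vehicle and 16.4 and 12.1 with GDF10 (0.24, −0.17 to 0.65), and it shares 532 exon bases with Vps51. Both had GDF10 replicate 1 as the highest library and overlapping groups. The other 6 members of this segment were Lss, the lanosterol synthase gene, Lbr, Hsd17b7, a sterol ketoreductase gene, the desaturase gene Sc5d, Dhcr7, which completes the synthesis, and Nsdhl, and the groups overlapped in all 6. Their intervals all lay within 1.5-fold.

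The 6 genes of sterol sensing and transport varied least as a sum among the 5 roles, with sums of 1125 and 1140 CPM under vehicle and 1150 and 1167 under GDF10. Srebf2 stood at 608 and 622 CPM with vehicle and 612 and 656 with GDF10, for a log2 fold change of 0.04 (−0.12 to 0.21). Srebf1 stood at 98.0 and 101 CPM with vehicle and 103 and 102 with GDF10 (0.05, −0.13 to 0.22). Insig1, itself a target of SREBPs, stood at 189 and 178 CPM with vehicle and 203 and 176 with GDF10 (0.05, −0.16 to 0.25). Both Srebf1 values with GDF10 lay above both with vehicle by a narrow margin, while Srebf2 and Insig1 overlapped. Insig2 and Scap overlapped too, and Stard4, a sterol carrier gene, had both GDF10 libraries lower, at 62.4 and 60.7 CPM against 64.4 and 66.9. All 6 intervals lay within 1.5-fold.

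In the group that makes acetyl-CoA, NADPH and palmitate, the vehicle libraries summed to 1091 and 1090 CPM and the GDF10 libraries to 993 and 1191. Fasn (ENSMUSG00000025153; mm10 chromosome 11, 120805846 to 120824547) held most of this gap. It stood at 486 and 484 CPM with vehicle, and at 393 and 570 with GDF10, 1 library below and 1 above both vehicle libraries. Its log2 fold change was −0.01 with a standard error of 0.20 (95% interval −0.57 to 0.55). Without GDF10 replicate 2 the log2 fold change was −0.30 (unadjusted p = 0.00160, adjusted p = 0.0740 in edgeR), and without GDF10 replicate 1 it was 0.23 (adjusted p = 0.376).

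Acly stood at 406 and 410 CPM with vehicle and 379 and 413 with GDF10, for a log2 fold change of −0.04 (−0.22 to 0.13), so that it overlapped. Acaca stood at 85.1 and 88.1 CPM with vehicle and 99.1 and 91.3 with GDF10 (0.14, −0.05 to 0.33; adjusted p = 0.834 in edgeR). With the exon length trend of each library removed, the log2 fold change of Acaca, the longest member at 17074 exon bases, was 0.31 (unadjusted p = 0.0370, adjusted p = 0.830 in edgeR). Acss2 stood at 7.502 and 8.55 CPM with vehicle and 9.68 and 9.12 with GDF10 (0.23, −0.13 to 0.59). On the other strand it shares 395 exon bases with Gss, at 1278 to 1860 counts, and 197 with Ggt7, at 468 to 636. Acss2 itself had 253 to 318 counts. Me1, the malic enzyme gene that supplies NADPH, stood at 106 and 98.96 CPM with vehicle and 112 and 107 with GDF10. In Acaca, Acss2 and Me1 both GDF10 libraries lay above both vehicle libraries, and none passed the test. Acacb did the same at 0.168 and 0.203 against 0.334 and 0.459 CPM, with a log2 fold change of 1.10 and an interval from −0.29 to 2.49, which its 6 to 16 counts could not narrow.

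The genes of elongation and desaturation summed to 2820 and 2891 CPM with vehicle and 3043 and 2841 with GDF10. Scd2 stood at 1610 and 1684 CPM with vehicle and 1790 and 1634 with GDF10, for a log2 fold change of 0.06 (−0.12 to 0.23). Scd1 was nearly level over the libraries, at 481 and 490 CPM with vehicle and 495 and 484 with GDF10 (0.01, −0.14 to 0.17). Its standard error of 0.07 was the smallest among the 39 members.

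Elovl6, which elongates palmitate to stearate, had both GDF10 libraries lower, at 76.6 and 83.3 CPM against 85.4 and 89.9 with vehicle (log2 fold change −0.13, −0.33 to 0.07; unadjusted p = 0.158, adjusted p = 0.845 in edgeR). Tecr, the last reductase of the elongation cycle, stood at 112 and 99.2 CPM with vehicle and 125 and 108 with GDF10 (0.14, −0.10 to 0.38). Elovl1, an elongase of very long chains, varied within both groups, at 56.0 and 72.5 CPM with vehicle and 78.3 and 58.4 with GDF10 (0.09, −0.43 to 0.61). Elovl1 shares 53 exon bases with Cdc20 on the other strand. Elovl5 and Fads2 overlapped between groups, while Fads1 had both GDF10 libraries higher, at 231 and 223 against 216 and 215 CPM.

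The number of positive fold changes depended most on 1 library, GDF10 replicate 1. In GDF10 replicate 1, 31 of 39 members lay above their mean over the 4 libraries, against 13 in GDF10 replicate 2, 18 in vehicle 1 and 15 in vehicle 2. The median deviation of members was 0.07 on the log2 scale in GDF10 replicate 1 and −0.04 in GDF10 replicate 2, beside 0.01 and −0.00059 for all genes. In the fits that left out 1 library, 0 members passed, beside 0.169% of all genes without vehicle 1, 0.271% without vehicle 2, 0.687% without GDF10 1 and 1.4% without GDF10 2. An unadjusted p under 0.05 was reached by 0 members without vehicle 1 (4.99% of all genes), by 1 without vehicle 2 (3.46%) and by 1 without GDF10 1 (5.62%). Positive fold changes numbered 25 of 39 without vehicle 1, 27 of 39 without vehicle 2 and 28 of 38 without GDF10 replicate 2. Leaving out a GDF10 library with high values lowers the fold changes by construction. Without GDF10 replicate 1 the members' median log2 fold change was 0.0024 and 20 of 39 were positive. Without GDF10 replicate 2 the median was 0.10, and 12 of 38 tested members, or 31.6%, had an unadjusted p under 0.05, against 15.1% of all genes in that fit. Of those 12, 10 were higher, among them Fdft1, Cyp51, Acat2 and Fdps, and Msmo1 and Fasn were lower.

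**Figure D4:**
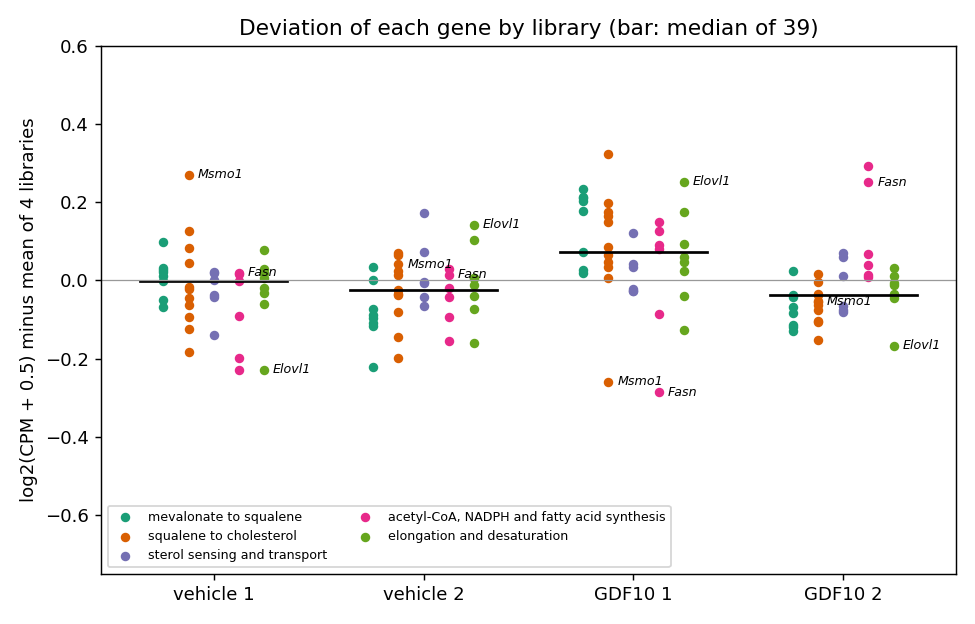
Deviation of each member from its mean over the 4 libraries, as log2(CPM + 0.5), coloured by role, with a black bar at the median of 39 members. In GDF10 1 the median is 0.07 and 31 members lie above 0, with Fasn and Msmo1 among those below; in GDF10 2 the median is −0.04.

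Library differences among the members went with exon length, again the union of all annotated exons. The longest transcript was not tried as length for these correlations. Over the 39 members, the log2 ratio of GDF10 1 to GDF10 2 correlated with exon length at a Spearman rho of −0.64, against −0.28 over 15342 genes, and that of vehicle 1 to vehicle 2 at −0.45, against −0.09. Fasn, with 10947 exon bases, had a log2 ratio of −0.54 between the GDF10 libraries, while Elovl1, with 2726, had one of 0.42. Neither gene was typical. Acaca, Lss and Acss2, with 17074, 10787 and 10163 exon bases, had ratios of 0.12, 0.07 and 0.08 between the GDF10 libraries. Elovl1 had a log2 ratio of −0.37 between the vehicle libraries, against the direction of the trend there. Against exon length the fold change between groups gave a rho of −0.24 over the 39 members and −0.26 over all genes; against GC content these were 0.52 and 0.26. These correlations are descriptions; the points share the same 4 libraries. With the length trend of each library removed the members' median log2 fold change was 0.07 and 0 of 39 passed, and with the GC trend removed it was 0.05 and 0 passed.

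**Figure D5:**
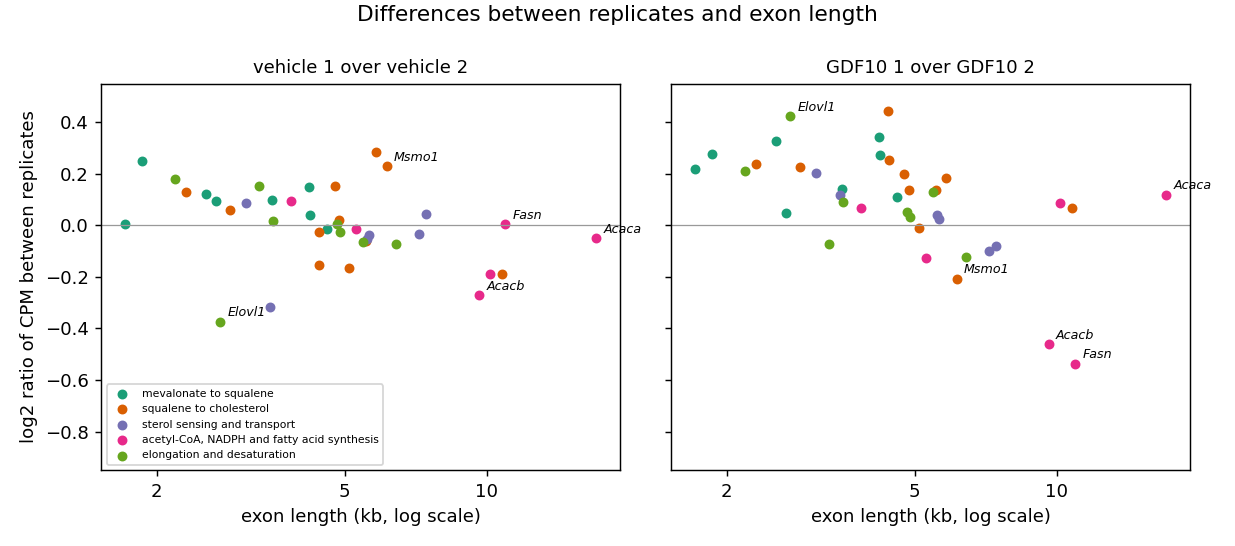
Log2 ratio of CPM between the replicates of vehicle (left) and of GDF10 (right) against exon length in kilobases (log axis), 1 point per member, coloured by role. Short members lie mostly above 0 in the GDF10 panel. Fasn lies at −0.54 there, and Acaca, the longest member, at 0.12.

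Of 73 further genes of sterol and lipid handling around the pathway, 67 were tested. Of these 0 passed, beside 0.162% of all genes, and 41 had positive and 26 negative fold changes (median 0.02). An unadjusted p under 0.05 was reached by 2, both higher, in edgeR, against 5.94% of all genes. The groups did not overlap in 19 that were higher and 10 that were lower with GDF10, or 43.3%, against 38.2% of all genes. Of 15 other genes of sterol synthesis and SREBP processing, Por, the electron donor of sterol demethylation, stood at 136 and 154 CPM in the group means (log2 fold change 0.17, unadjusted p = 0.0461, adjusted p = 0.825 in edgeR) and Ggps1, of geranylgeranyl synthesis, had a log2 fold change of −0.11. Of 14 genes of sterol uptake, efflux and storage, 12 were tested; Abca1, a sterol exporter, had a log2 fold change of −0.36 at 5.45 and 4.23 CPM, and Mylip, a ligase for lipoprotein receptors, one of 0.20. Of 30 other genes of fatty acid and glycerolipid synthesis, 27 were tested; Slc25a1, the citrate carrier, stood at 81.1 and 94.4 CPM (0.22, unadjusted p = 0.0490, adjusted p = 0.825 in edgeR) and Acsl1, an acyl-CoA synthetase, at 17.3 and 13.6 CPM (−0.35). Of 14 genes of fatty acid oxidation 13 were tested, with Hadha and Cpt2 at log2 fold changes of 0.14 and 0.17.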

How the data were processed

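Whole-number read counts per gene were deposited by the authors, not normalized, with 1 column for each of 4 libraries; columns headed as controls were read as vehicle. Per the submitters' processing notes the build was mm10 and the tools included HISAT2 2.0, StringTie 1.3.3b, DESeq2 1.12.4, Trimmomatic 0.36, FastQC 0.11.2 and bedtools 2.26.0, with no role or order. Which program counted reads, on which annotation and with which strand setting, is not given in the sources used here, so reads of overlapping or similar genes may be misplaced. Symbols, positions and exon lengths came from GENCODE M21 for 51633 of 51826 identifiers.

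Genes kept by filterByExpr were scaled by TMM and tested with edgeR 4.0.16 (R 4.3.3, robust glmQLFit and glmQLFTest, no covariates), with Benjamini-Hochberg adjustment over 15467 genes and a threshold of 0.05. Standard errors and 95% intervals were derived from each fold change with its F statistic. RPKM used effective library sizes. A count of 3 was 0.0840 to 0.101 CPM. A p-value here reflects only how far the 4 libraries spread. Alternatives were DESeq2 1.42.0, limma-voom (limma 3.58.1), other scalings and filters, a replicate block, length or GC trends removed (loess, span 0.3), and each library left out. The scripts were tested on simulated data.

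The members, lists and tests were chosen with earlier results of these data known. All 39 members could be named. Full statistics went to the 10 of lowest p and, in each role, the 2 of highest RPKM, with Hmgcs1, Srebf1 and Elovl1 added after their values were seen; of each related list the 2 genes of lowest p are named.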

Additional observations from a re-analysis of the deposited data

How the results depend on the processing

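No member passed in any of the 13 alternatives, and the lowest adjusted p was 0.0740, for Fasn without GDF10 replicate 2. The count of all genes called was 25, 65 with DESeq2, 11 with limma-voom, and 27 to 224 with 1 library left out, the highest without GDF10 replicate 2; it was 44 without vehicle replicate 2 and 112 without GDF10 replicate 1. Of related genes 0 were called, and 0 to 1 with 1 library left out: Nr1h2, without GDF10 replicate 2 (log2 fold change −0.70, adjusted p = 0.0126 in edgeR). Members with groups apart numbered 11, but 7 with the GC trend removed (35.4% of all genes), 14 with the length trend removed (36.9%), and 23 to 29 with 1 library left out (63.5% to 75.4%), where a group of 1 overlaps less often by construction. Deviations of same-numbered libraries had a Pearson correlation of 0.09 and a Spearman correlation of 0.13 over 15467 genes; 2 pairs are too few to show pairing, and the labels state none. With the replicate number as a block 23 genes and 0 members were called; the member with an unadjusted p under 0.05 was then Mvd (log2 fold change 0.19, unadjusted p = 0.0378, adjusted p = 0.564 in edgeR), not Msmo1 (unadjusted p = 0.0593, adjusted p = 0.603), beside 8.51% of all genes. With the block and the length trend removed, 26 genes and 0 members were called.

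Of 23 members refitted under 13 alternatives, 279 of 298 log2 fold changes kept their direction, and 0 passed the threshold. The sign turned for Fasn with the length trend removed (0.085; 0.071 with the replicate block as well), and with the GC trend removed for Srebf2 (−0.016), Srebf1 (−0.016) and Hmgcs1 (0.0096). The log2 fold change of Acaca kept its sign but moved from 0.14 to 0.31 with the length trend removed, and to 0.30 with the block as well (unadjusted p = 0.0167, adjusted p = 0.637 in edgeR). With 1 library left out the sign turned within these ranges: Acat2 −0.068 to 0.26, Fdps −0.089 to 0.26, Fdft1 −0.00040 to 0.27, Sqle −0.039 to 0.10, Cyp51 −0.026 to 0.23, Srebf2 −0.0056 to 0.093, Insig1 −0.059 to 0.14, Acly −0.11 to 0.018, Fasn −0.30 to 0.23, Elovl1 −0.14 to 0.29, Scd1 −0.0049 to 0.030 and Scd2 −0.012 to 0.12. The lone library of a group was then assumed to vary like the others. With the longest transcript as length the members' summed level was 1970 RPKM, against 1619, and shares were 84.0% for Srebf2, 46.6% and 18.1% for Elovl1 and Elovl6 of the 3 elongases, against 41.0% and 22.2%, and 46.2% for Fads2. The cause was not tested except where named. Depth limits Acacb, at 6 to 16 counts.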
